A study of Mus musculus with 18 samples.

Results

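The 10 genes described here, chosen by symbol, were Gbp2, Gbp3, Gbp4, Gbp5, Gbp6, Gbp7, Gbp8 and Gbp9, which encode guanylate-binding proteins (GBPs), and Irgm1 and Igtp, which encode immunity-related GTPases (IRGs). They are 10 of the 20639 genes listed in the expression tables of 2 bone marrow populations. LSK are lineage-negative cells that carry Sca-1 and c-Kit, the compartment of stem and early progenitor cells, and CMPs are common myeloid progenitors. NZBW/F1 mice are a spontaneous lupus model, bred by crossing NZB with NZW. They were studied at 12 weeks without disease (F1-P) and at 28 to 36 weeks with proteinuria (F1-L). C57BL/6 mice of 12 weeks (B6-Y) and of 28 to 36 weeks (B6-O) served as age-matched controls. All mice were female, and no group carried a transgene or a deleted gene. RNA was sequenced from 3 samples per group, in all 4 groups for LSK and in the NZBW/F1 groups for CMPs. Age and disease cannot be told apart within NZBW/F1 mice, since the diseased mice were also the older ones. The p-values measure the spread between these samples only. In sorted bulk RNA, fewer cells of a type and less RNA per cell cannot be told apart.

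GBPs and IRGs are large GTPases of cell-autonomous defence. Interferon-γ (IFN-γ) induces them, in part through IRF1, and they assemble on vacuoles and membranes that hold intracellular microbes. Several GBPs also promote inflammasome activation. Irgm1 belongs to the regulatory IRGs, which keep the effector IRGs inactive on the cell's own membranes, and mice without Irgm1 are known for impaired stem cell function under inflammatory stimulation. In the mouse genome (GRCm38) the GBP genes lie in 2 clusters. Gbp5 (chr3:142493978-142522344), Gbp7 (chr3:142530342-142550149), Gbp3 (chr3:142560026-142573209) and Gbp2 (chr3:142620602-142638008) follow each other on the plus strand of chromosome 3. Gbp8 (chr5:105014150-105139540), Gbp9 (chr5:105077630-105139539), Gbp4 (chr5:105115767-105139586) and Gbp6 (chr5:105270702-105293698) lie on the minus strand of chromosome 5. Irgm1 (chr11:48861968-48871683, minus strand) and Igtp (chr11:58199556-58207591, plus strand) are both on chromosome 11.

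The promoters carry letters that interferon-regulated transcription factors are known to read. RefSeq promoter windows (GRCm38.p6, 250 bases before to 50 after the annotated start) were at hand for 6 of the 10 genes: Gbp2, Gbp3, Gbp5, Gbp7, Irgm1 and Igtp. All 6 held the letters GAAANNGAAA of an interferon-stimulated response element (ISRE) on either strand, which 3.44% of 32851 promoters of the same length did. The letters TTCNNNGAA of a gamma-activated site (GAS) were found in 3 of the 6, Gbp5, Gbp7 and Igtp, against 8.3% of all promoters. The 6 genes had 7 windows, since Gbp3 had an additional window (chr3:142560106-142560405), which held neither set of letters. The counts are thus of genes with a match in any window, while the shares are of single windows. A match to these letters is a description of the sequence, not evidence of binding. The following 180 bases end at the base before the start of Gbp7 (chr3:142530156-142530335, plus strand) and Igtp (chr11:58199376-58199555, plus strand), the members with higher values in F1-L CMPs whose windows lie outside any annotated exon. Capitals mark the GAS and ISRE letters.
Gbp7: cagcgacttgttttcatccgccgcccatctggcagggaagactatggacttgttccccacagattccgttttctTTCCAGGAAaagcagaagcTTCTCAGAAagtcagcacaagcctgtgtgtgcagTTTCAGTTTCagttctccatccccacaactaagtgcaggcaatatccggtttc
Igtp: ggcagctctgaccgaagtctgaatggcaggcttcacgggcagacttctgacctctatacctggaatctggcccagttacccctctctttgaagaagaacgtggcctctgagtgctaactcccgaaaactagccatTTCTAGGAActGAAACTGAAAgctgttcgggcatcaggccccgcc

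For the other 4 genes, 30 bases around the ISRE letters (capitals) are shown because the element is what the 6 promoters share. They lie at chr3:142620594-142620623 for Gbp2, chr3:142559992-142560021 for Gbp3 and chr3:142496759-142496788 for Gbp5, all on the plus strand, and at chr11:48871428-48871457 on the minus strand for Irgm1. The elements of Gbp2 and Irgm1 lie in an annotated exon, that of Gbp5 in an intron and that of Gbp3 outside the gene. In Gbp3 and Irgm1 a pair of overlapping matches forms 1 longer run.
Gbp2: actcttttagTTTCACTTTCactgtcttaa
Gbp3: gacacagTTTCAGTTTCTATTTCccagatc
Gbp5: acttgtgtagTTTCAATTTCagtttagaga
Irgm1: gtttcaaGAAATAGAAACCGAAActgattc

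In Igtp the ISRE letters start 2 bases after the GAS letters end, with no overlap. This spacing occurred in 5 of the 32851 promoters (0.0152%), the IRG genes Igtp, Irgm2, Tgtp1 and Tgtp2 and the gene model Gm12185. The arrangement was noticed in these windows and then counted. Copies of one gene share their sequence by descent, so the 5 are not independent occurrences. The windows of Irgm2 (chr11:58214898-58214927, plus strand), Tgtp1 (chr11:48992309-48992338, minus strand) and Tgtp2 (chr11:49064268-49064297, minus strand), with both sets of letters in capitals, are set beside that of Igtp (chr11:58199507-58199536, plus strand) to show the letters they share.
Igtp: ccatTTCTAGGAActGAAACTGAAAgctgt
Irgm2: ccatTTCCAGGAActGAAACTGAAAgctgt
Tgtp1: ccatTTCCAGGAAtcGAAACTGAAAcctac
Tgtp2: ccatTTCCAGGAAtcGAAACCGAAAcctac

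Values are the authors' depth-normalised read counts (CPM), scaled by a normalisation factor per sample. The depth was 23772252 to 28493747 reads in LSK and 20001328 to 24761060 reads in CMPs. The genes that mark the gates were detected in every sample. Ly6a, which encodes Sca-1, was 35.5 to 113 scaled CPM in C57BL/6 LSK, 293 to 879 in NZBW/F1 LSK and 1.14 to 6.70 in CMPs. The LSK samples also held plasma cell transcripts, with 6 marker genes summing to 9453 to 36851 scaled CPM in NZBW/F1 mice and 242 to 2464 in C57BL/6 mice. Transcripts of 6 T and NK cell markers were also higher in NZBW/F1 LSK (127 to 285 against 40.2 to 87.6). The 7 markers of monocytes and macrophages summed to 373 to 741 in NZBW/F1 LSK and 37.1 to 176 in C57BL/6 LSK, with Ly6c2 as the largest part. Against C57BL/6 of like age, 2 of the 7 had positive and 5 negative log2 fold changes in F1-P, and all 7 had positive ones in F1-L. In CMPs, transcripts of 6 neutrophil markers summed to 142, 2940 and 3882 in F1-P and to 34.7, 26.9 and 188 in F1-L. Tnfrsf17, Prf1, Cdh5 and Cxcl12, each 1 gene of a marker list, were at 0 in at least 1 F1-L CMP sample. Reads of both strains were aligned to a genome based on C57BL/6, and the part of sequence differences in the strain comparisons was not tested.

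All 10 genes were expressed in LSK of all 4 groups. Compared per length, as scaled CPM per kb of exon, Igtp was the highest of the 10 in every LSK group, with means from 14.8 ± 3.64 in B6-Y to 21.6 ± 2.11 in F1-L (SD, n = 3). Gbp3 followed in both NZBW/F1 groups (18.2 ± 1.2 in F1-P and 18.8 ± 1.85 in F1-L), and Gbp2 in both C57BL/6 groups (13.0 ± 3.99 in B6-Y and 16.6 ± 0.775 in B6-O). Gbp6 was the lowest in all 6 groups, at 0.889 ± 0.313 per kb in F1-P LSK and 2.85 ± 0.684 in B6-Y LSK. In B6-Y the neighbours from Igtp down to Irgm1 lay within each other's spread. In F1-L LSK the first 3 levels, of Igtp, Gbp3 and Gbp7 (15.8 ± 2.39), were separated by more than the spread, and those from Gbp2 (13.2 ± 1.81) to Irgm1 (8.89 ± 0.711) were not. The first place depended on the length used. Per kb of the longest transcript, Gbp3 was above Igtp in F1-P (22.1 against 20.2) and in F1-L (22.9 against 21.6), Irgm1 was above Igtp in B6-Y (15.4 against 14.8), and Gbp6 was again the lowest in all 6 groups.

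**Figure D1:**
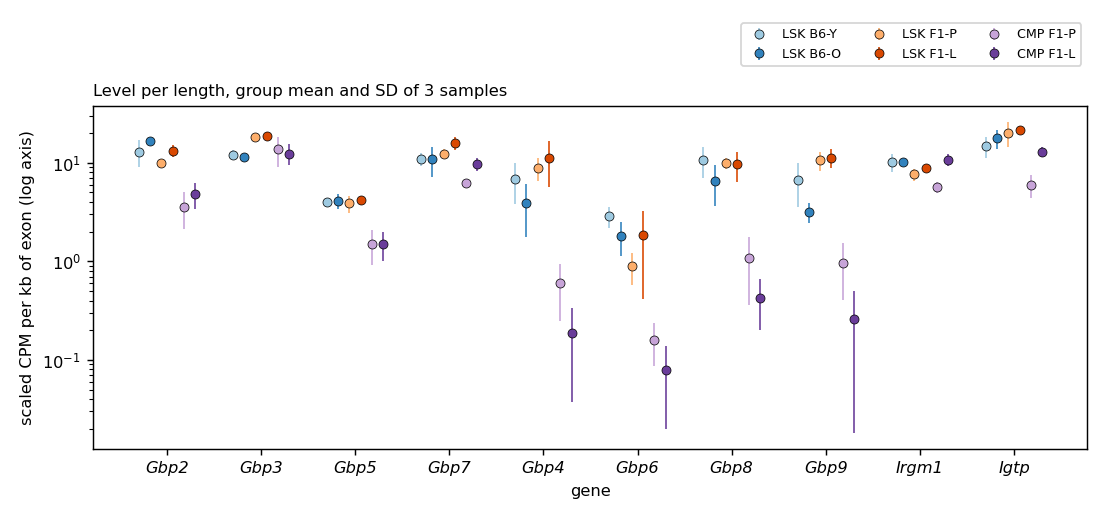
Level of each of the 10 genes per kb of exon (scaled CPM per kb, log axis) in the 4 LSK and 2 CMP groups, as the mean (point) and SD (bar) of 3 samples. On this scale Igtp is highest in every LSK group (per kb of the longest transcript, only in B6-O), Gbp6 is lowest in all 6 groups, and the chromosome 5 genes Gbp4, Gbp6, Gbp8 and Gbp9 lie far lower in CMPs than in LSK.

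The CMP profile of the family was of another kind. The LSK and CMP tables were normalised separately, so their values are given side by side with no test. In F1-L, mean Gbp4 was 83.2 scaled CPM in LSK and 1.4 in CMPs, and mean Gbp9 was 58.4 and 1.34. In F1-P, Gbp4 stood at 66.7 in LSK and 4.47 in CMPs, and Gbp8 at 33.9 and 3.68. The chromosome 3 genes and the IRGs were nearer to each other in the 2 populations, with Gbp3 at 59.3 and 44.6 and Irgm1 at 44.2 and 32.8 in F1-P. In F1-L, Irgm1 was 51.6 in LSK and 62.4 in CMPs. Gbp6 had only 11, 21 and 36 reads in the F1-P CMP samples and 11, 2 and 16 in the F1-L samples, and was the only 1 of the 10 genes that did not pass the filter there (at least 1 scaled CPM in at least 3 samples).

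**Figure D2:**
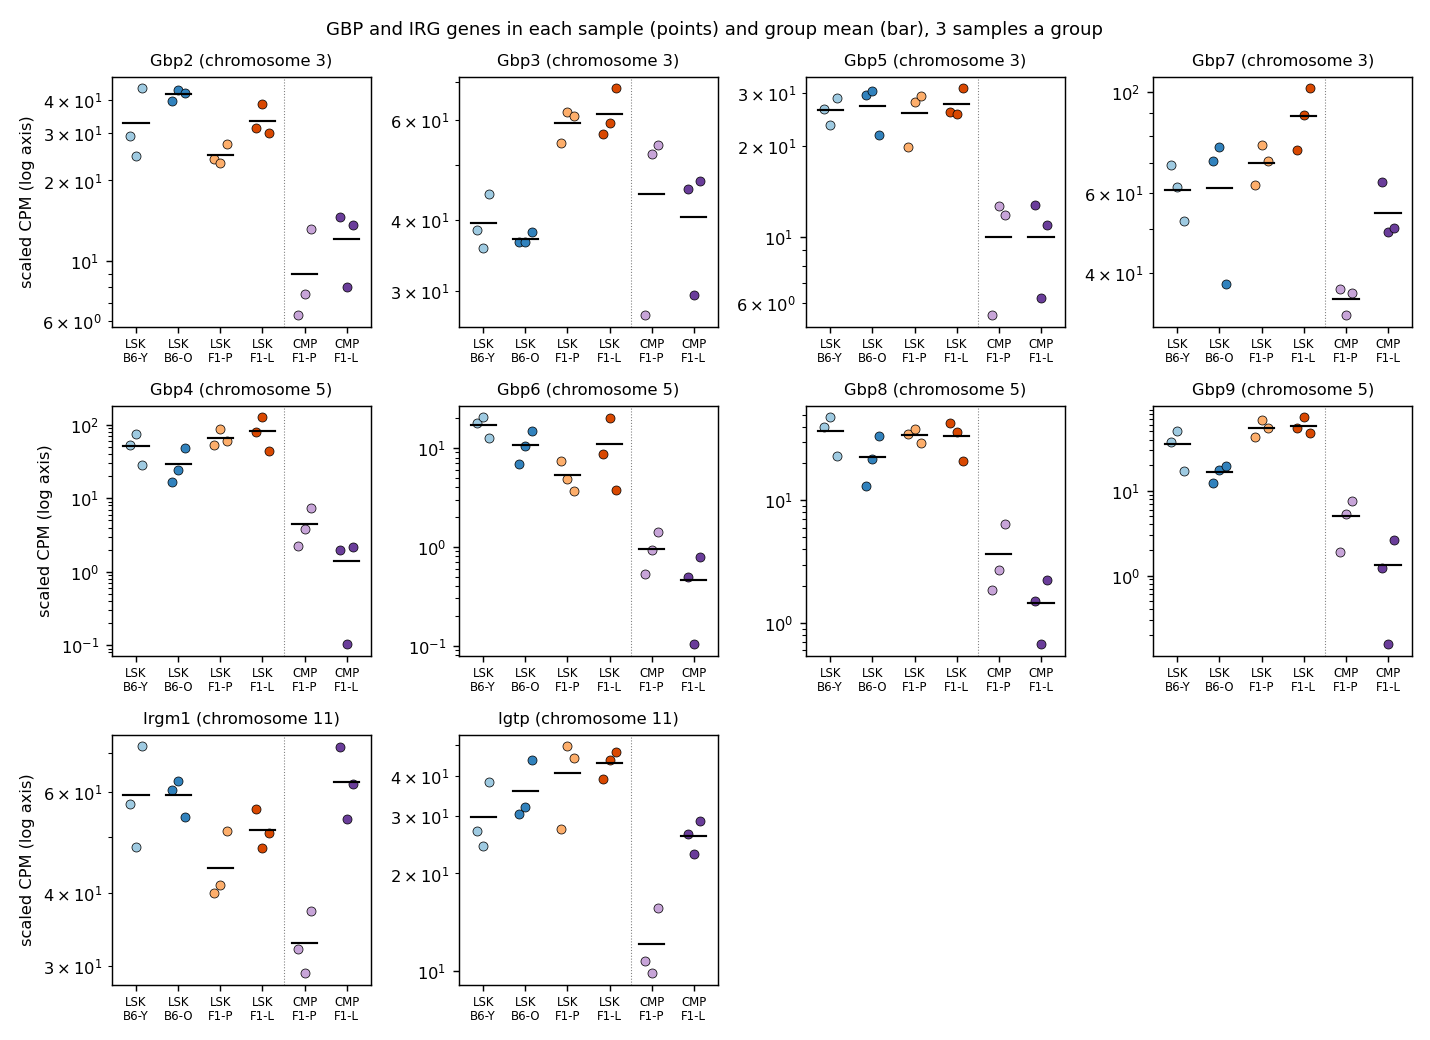
Scaled CPM (log axis) of the 10 genes in each sample (points) with the group mean (bar), 3 samples a group, LSK groups to the left of the dotted line and CMP groups to the right. Irgm1, Igtp and Gbp7 separate F1-L from F1-P in CMPs, and Gbp4, Gbp6, Gbp8 and Gbp9 scatter widely within LSK groups.

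CMPs of F1-P and F1-L mice were compared to ask how the family stood before and after the onset of disease. Irgm1, Igtp and Gbp7 were higher in every F1-L sample than in every F1-P sample, by about the same factor for the IRGs. Gbp4, Gbp8 and Gbp9 had lower means in F1-L, and Gbp2, Gbp3 and Gbp5 lay close together. No member passed the threshold used here, an adjusted p of at most 0.05 in limma with a fold change above 1.5, which 0.00774% of the 12926 genes tested did. The likelihood ratio test of edgeR, as the study used it, and DESeq2 each called Irgm1, Igtp and Gbp7 as higher. They called 0.263% and 0.387% of all genes as higher, while the quasi-likelihood test of edgeR called none of the 9 members and 0.00774% of all genes. In limma 3 of the 9 members were higher and 1 lower at an unadjusted p below 0.05, where 9.8% of all genes had such a p.

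Irgm1, the regulatory IRG, stood at 32, 29.1 and 37.3 scaled CPM in F1-P CMPs and at 71.6, 53.9 and 61.8 in F1-L. The lowest F1-L sample lay well above the highest F1-P sample. The log2 fold change of Irgm1 was 0.91 (SE 0.15, 95% interval 0.55 to 1.26, adjusted p = 0.338 in limma). The adjusted p of Irgm1 was 0.00106 in the likelihood ratio test of edgeR and 0.000263 in DESeq2. Leaving out any 1 sample kept the log2 fold change of Irgm1 between 0.80 and 1.00. Without F1-P replicate 1 it passed in limma (adjusted p = 0.0496), as did the IRG genes Ifi47, Gm12250 and Tgtp2. The F1-P samples kept in that fit, replicates 2 and 3, were those with the most neutrophil transcripts, and their part in this pass was not tested.

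Igtp (also called Irgm3), another regulatory IRG, was 10.7, 9.84 and 15.7 scaled CPM in F1-P and 26.4, 23 and 29.1 in F1-L. The groups did not overlap. Its log2 fold change was 1.08 (SE 0.20, 95% interval 0.59 to 1.56), and its adjusted p was 0.352 in limma, 0.010 in the likelihood ratio test of edgeR and 0.00228 in DESeq2. Gbp7, a member of the chromosome 3 cluster, was 36.9, 32.2 and 36 in F1-P and 63.3, 49.1 and 50.3 in F1-L. Here too each F1-L sample was above each F1-P sample, by a log2 fold change of 0.61 (SE 0.13, 95% interval 0.30 to 0.92, adjusted p = 0.353 in limma). Counting Gbp4 (below), 3 of the 9 members were higher and 1 lower without overlap, where 16% of all genes did not overlap (9.45% higher and 6.57% lower).

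The neutrophil transcripts of the CMP samples were above every F1-L sample in F1-P replicates 2 and 3. F1-P replicate 1 had the least of them in its group (142), within the 26.9 to 188 of the F1-L samples. In that sample Irgm1 (32), Igtp (10.7) and Gbp7 (36.9) were below every F1-L sample. This is 1 library, and the part of other cells in these values was not tested.

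The other chromosome 3 genes did not separate the 2 CMP groups. Gbp2 was 6.29, 7.55 and 13.2 scaled CPM in F1-P and 14.6, 8.05 and 13.6 in F1-L, with a log2 fold change of 0.41 (95% interval -0.38 to 1.19). Gbp3 was 27.2, 52.3 and 54.4 in F1-P and 45.5, 29.5 and 46.9 in F1-L (log2 fold change -0.10, 95% interval -0.85 to 0.65). Gbp5, known for its role in inflammasome assembly, was 5.47, 12.6 and 11.8 in F1-P and 12.7, 6.25 and 10.9 in F1-L (log2 fold change 0.03, 95% interval -0.87 to 0.92). The intervals of Gbp2 and Gbp5 hold the log2 fold change seen for Irgm1, and that of Gbp3 does not.

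Among 15 further family genes, compared to see whether the pattern was shared, 9 passed the filter in CMPs. The IRG genes Ifi47 and Gm12250 were higher in every F1-L sample than in every F1-P sample. Neither passed in limma, and the likelihood ratio test of edgeR and DESeq2 called both as higher. Ifi47, an effector IRG, was 29.5, 30 and 33.3 scaled CPM in F1-P and 65.2, 51.1 and 57.9 in F1-L (log2 fold change 0.88, 95% interval 0.59 to 1.17, adjusted p = 0.283 in limma). Gm12250 was 2.31, 2.34 and 2.98 in F1-P and 11.1, 6.71 and 9.16 in F1-L (log2 fold change 1.48, 95% interval 0.97 to 1.98, adjusted p = 0.283 in limma). Both were thus about as far apart as Irgm1 and Igtp or farther. Iigp1 (0.768, 0.75 and 1.8 against 4.09, 2.79 and 3.98), Tgtp1 (0.336, 0.441 and 0.94 against 2.32, 1.29 and 2.39) and Tgtp2 (0.432, 0.221 and 0.47 against 1.68, 1.39 and 1.74) were low. They passed the filter through their F1-L samples, which favoured higher values in F1-L, so their separation is a description only. Irgm2 (2.59, 5.38 and 10.3 against 11.5, 5.16 and 8.31), Irgq, Mx1 and Mx2 overlapped.

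**Figure D3:**
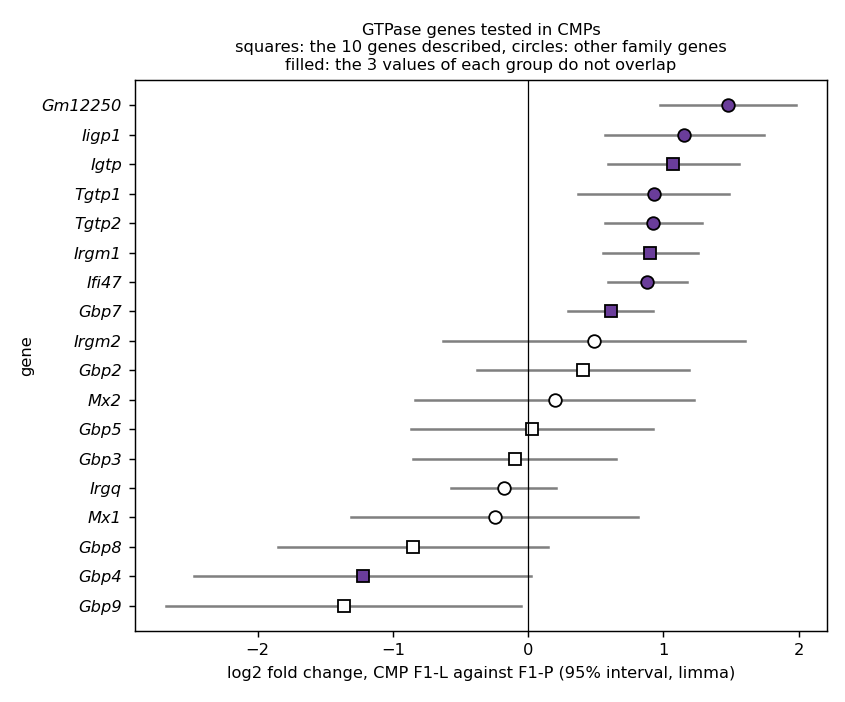
Log2 fold change of F1-L against F1-P CMPs with its 95% interval (limma) for the 9 members tested (squares) and 9 further family genes (circles), filled where the 3 values of the groups do not overlap. The IRG genes Irgm1, Igtp, Ifi47 and Gm12250 lie to the right of 0, as do Tgtp1, Tgtp2 and Iigp1, which passed the filter through F1-L, and Gbp4, Gbp8 and Gbp9 to the left.

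The chromosome 5 genes went the other way in CMPs, at low levels. Gbp4 was 2.21, 3.84 and 7.36 scaled CPM in F1-P and 1.96, 0.103 and 2.14 in F1-L. The groups of Gbp4 did not overlap, though their nearest samples were almost level, and its log2 fold change was -1.22 (95% interval -2.47 to 0.02). Gbp9 (1.92, 5.34 and 7.64 against 1.23, 0.155 and 2.64) and Gbp8 (1.87, 2.69 and 6.46 against 1.5, 0.671 and 2.24) overlapped between the groups. Their log2 fold changes were -1.37 (95% interval -2.68 to -0.05, adjusted p = 0.502 in limma) and -0.85 (95% interval -1.85 to 0.15).

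Transcripts of B cells moved with these values. The 3 B cell markers Ms4a1, Cd79b and Cd22 summed to 13.4, 62.7 and 83.9 scaled CPM in the F1-P CMP samples and to 11.8, 6.5 and 17.3 in F1-L, and none of the 3 was at 0 in any sample. Over the 6 CMP samples the orders of Gbp8 and Gbp9 were the order of these sums, from F1-L replicate 2 to F1-P replicate 3, and in Gbp4 F1-P replicate 1 and F1-L replicate 3 changed places. F1-P replicate 1, with the lowest sum of its group, also had the lowest Gbp4, Gbp8 and Gbp9 of its group. The marker sums of plasma cells, T and NK cells, monocytes and macrophages, neutrophils, plasmacytoid dendritic cells and stroma, too, were highest in F1-P replicates 2 and 3. For plasma cells they were 200 and 285 in these samples and 64.5 to 108 in the other 4, and for monocytes and macrophages 178 and 269 against 54.1 to 168. The part of other cells in the values of Gbp4, Gbp8 and Gbp9 was not tested. Irgm1 did not follow this order and was highest in the 3 F1-L samples.

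**Figure D4:**
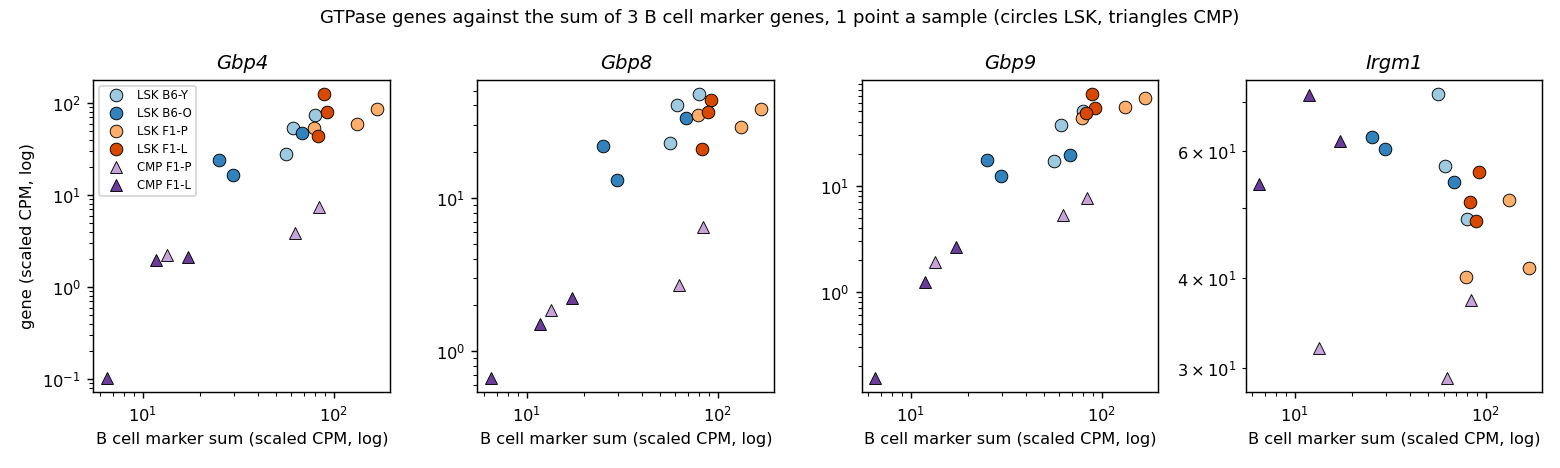
Scaled CPM of Gbp4, Gbp8, Gbp9 and Irgm1 against the sum of 3 B cell marker genes (both axes log), 1 point a sample, circles for LSK and triangles for CMPs, coloured by group. Within CMPs Gbp8 and Gbp9 follow the order of the B cell marker sum, and in C57BL/6 LSK the sample with the highest sum has the highest Gbp4, Gbp8 and Gbp9.

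In LSK, F1-L and F1-P mice were compared for the same question, and no member passed the threshold. No member was called by limma, by the quasi-likelihood or likelihood ratio test of edgeR or by DESeq2, and these called 0.0279%, 0.0209%, 4.58% and 5.12% of 14332 genes. In limma 2 of the 10 members, Gbp2 and Gbp7, had an unadjusted p below 0.05, a share near the 12.8% of all genes. Gbp2 was 24, 23.2 and 27.4 scaled CPM in F1-P and 31.4, 38.5 and 30 in F1-L. It was the only 1 of the 10 whose groups did not overlap, as 17.7% of all genes did not, with a log2 fold change of 0.40 (95% interval 0.09 to 0.72, adjusted p = 0.291 in limma). Gbp7 was 62.5, 76.4 and 70.4 in F1-P and 74.7, 89.1 and 102 in F1-L (log2 fold change 0.33, adjusted p = 0.386 in limma). The direction of Gbp7 was thus that seen in CMPs, and its groups overlapped by 1 sample on each side. Gbp6 had the largest estimate of the 10, at 7.34, 4.84 and 3.69 in F1-P and 8.65, 20.3 and 3.77 in F1-L. The groups of Gbp6 overlapped, with a log2 fold change of 0.70 in limma (95% interval -0.53 to 1.93, adjusted p = 0.647) and of 1.04 in edgeR and DESeq2. The 6 neutrophil markers summed to 144, 244 and 547 in F1-P LSK and to 6246, 2484 and 909 in F1-L. In limma all 6 had an unadjusted p below 0.05 and none was called. The likelihood ratio test of edgeR called 6 of these neutrophil markers and DESeq2 5 as higher, and the quasi-likelihood test of edgeR called none. Of the 7 markers of monocytes and macrophages, 6 had positive log2 fold changes and 1 a negative one. In limma 5 of them were higher at an unadjusted p below 0.05 and none was called. The likelihood ratio test of edgeR and DESeq2 each called 5 of these markers as higher. The part of neutrophils, monocytes and macrophages in the values of the members was not tested.

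The IRGs that separated the CMP groups overlapped in LSK. Irgm1 was 40.1, 41.3 and 51.3 scaled CPM in F1-P and 56.1, 47.9 and 50.9 in F1-L (log2 fold change 0.22, 95% interval -0.08 to 0.52). Igtp was 27.5, 49.4 and 45.6 in F1-P and 39.1, 44.8 and 47.4 in F1-L (log2 fold change 0.14, 95% interval -0.39 to 0.66). The difference between the CMP and the LSK effect was tested in 1 limma fit over the 12 NZBW/F1 samples, added after the other results were seen. It was 0.68 on the log2 scale for Irgm1 (95% interval 0.25 to 1.12, adjusted p = 0.340 in limma), 0.94 for Igtp (0.24 to 1.64, adjusted p = 0.427 in limma) and 0.28 for Gbp7 (-0.15 to 0.71). No member passed in limma, nor did any of the 14526 genes (0%), while 3 of the 10 members (Irgm1, Igtp and Gbp9) and 7.9% of genes had an unadjusted p below 0.05. The quasi-likelihood test of edgeR called 0% and its likelihood ratio test 3.19% of genes, with no member among them, and DESeq2 called Irgm1 (adjusted p = 0.0247 in DESeq2) and 3.02% of genes.

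Within F1-L LSK the chromosome 5 genes varied together from sample to sample. Gbp4 was 79.2, 126 and 44.5 scaled CPM, Gbp6 8.65, 20.3 and 3.77, and Gbp9 54, 73 and 48.2, each highest in replicate 2 and lowest in replicate 3. The neighbouring genes Gbp11 (10.9, 31.6 and 3.5) and Gbp10 (2.52, 6.32 and 0.853) had the same order, and Gbp8 (43.1, 36.1 and 20.9) did not. The B cell marker sums of these samples were 92.1, 89.2 and 82.4, which is the order of Gbp8 and not that of the other genes. Of all stretches of 75 bases (the read length) in Gbp6 exons, 67.3% occurred also in other genes, among them Gbp10, and the exons of Gbp4, Gbp8 and Gbp9 overlap on 1 strand. How the authors' counting assigned such reads was not tested, and the values of these 4 genes are uncertain to that extent. The share was 3.61% or less for Gbp2, Gbp3, Gbp4, Gbp5, Gbp9 and Irgm1, 8.04% for Gbp8, 7.8% for Igtp and 11.3% for Gbp7.

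F1-P and B6-Y LSK were compared to ask how young NZBW/F1 mice differed from controls before disease. Gbp6 was lower in NZBW/F1 LSK and Gbp3 higher, and the IRGs did not differ past the threshold. In this comparison limma called 16.2% of 14380 genes. Of the 10 members 1 was called, a share below that of all genes. Gbp6 was 18.1, 20.4 and 12.5 scaled CPM in B6-Y and 7.34, 4.84 and 3.69 in F1-P. The groups did not overlap, and Gbp6 fell by 1.53 on the log2 scale (SE 0.27, 95% interval -2.16 to -0.90, adjusted p = 0.00746 in limma). The quasi-likelihood and likelihood ratio tests of edgeR and DESeq2 also made this call, and each of them called Gbp3 as well, at shares of 15.9%, 19.1% and 19.6% of all genes.

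Gbp3 was 38.4, 35.8 and 44.6 scaled CPM in B6-Y and 54.8, 62.1 and 61 in F1-P. All F1-P samples were above all B6-Y samples. Its adjusted p was 0.0236 in limma, but its fold change of 1.49 missed the minimum of 1.5 (log2 fold change 0.58, 95% interval 0.26 to 0.89). Of all genes tested, 35.5% did not overlap between these groups, against 2 of the 10 members. Gbp9 (37.3, 50.4 and 17.2 against 43.3, 67.3 and 54.5) and Gbp4 (53.1, 73.9 and 28.2 against 53.5, 86.8 and 59.8) overlapped, with log2 fold changes of 0.74 and 0.43. In both genes B6-Y replicate 3 was the lowest of the 6 samples. Irgm1 was 57.1, 48.2 and 71.9 in B6-Y and 40.1, 41.3 and 51.3 in F1-P, a log2 fold change of -0.40 (95% interval -0.81 to 0.01, adjusted p = 0.173 in limma).

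F1-L and B6-O LSK, the older mice of each strain, were compared for the same contrast in disease. Gbp9 and Gbp3 rose, and Gbp4 was higher in its mean with overlapping groups. The B cell marker sums were also higher in F1-L (82.4 to 92.1) than in B6-O (25.2 to 68.2). The median log2 fold change over the 3 markers was 1.58, each with an unadjusted p below 0.05 in limma. None was called by limma or the quasi-likelihood test of edgeR, while its likelihood ratio test called 1 and DESeq2 2 as higher. Other marker lists differed too. Limma called 5 of 6 plasma cell, 3 of 6 T and NK cell and 3 of 7 monocyte and macrophage markers as higher. Their median log2 fold changes were 3.22, 2.04 and 1.70, and 1 T and NK cell marker had a negative value. The part of B cells or of these other cells in the values of Gbp9, Gbp4 and Gbp3 was not tested. Gbp3 and Gbp9 were 2 of 10 members called, where limma called 11.6% of 14381 genes (7.84% as higher). Gbp9 was 12.2, 17.5 and 19.3 scaled CPM in B6-O and 54, 73 and 48.2 in F1-L. The groups lay far apart, and the log2 fold change was 1.78 (SE 0.23, 95% interval 1.24 to 2.31, adjusted p = 0.00344 in limma). The rise of Gbp9 was called by both tests of edgeR and by DESeq2 too, which called 10.8%, 15.2% and 15.8% of all genes, and stayed between 1.59 and 1.90 on the log2 scale with any 1 sample left out.

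Gbp3 was 36.6, 36.7 and 38.2 scaled CPM in B6-O and 56.8, 59.4 and 68.3 in F1-L. Its samples lay close together within each group and apart between them, with a log2 fold change of 0.71 (SE 0.13, 95% interval 0.41 to 1.00, adjusted p = 0.0126 in limma). With 1 sample left out its log2 fold change was 0.63 to 0.76, and without F1-L replicate 2 or 3 or B6-O replicate 1 or 2 its adjusted p in limma was 0.0575 to 0.0995. Gbp3 thus had higher values in NZBW/F1 LSK at either age, though it passed in limma only in the older mice. These comparisons share no sample, but they share the strains, and the part of other cells in Gbp3 was not tested. Gbp4 was 16.5, 24.2 and 47.8 in B6-O and 79.2, 126 and 44.5 in F1-L. F1-L replicate 3 lay below B6-O replicate 3, and the log2 fold change of 1.48 (95% interval 0.37 to 2.58) had an adjusted p of 0.0913 in limma, 0.0223 in the likelihood ratio test of edgeR and 0.00783 in DESeq2. Without B6-O replicate 3, Gbp4 passed in limma (log2 fold change 1.88, adjusted p = 0.0275). Gbp2 was lower in each F1-L sample (31.4, 38.5 and 30) than in each B6-O sample (39.6, 43.3 and 42.4), with a log2 fold change of -0.32 (adjusted p = 0.198 in limma), and 37.4% of all genes did not overlap between these groups.

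**Figure D5:**
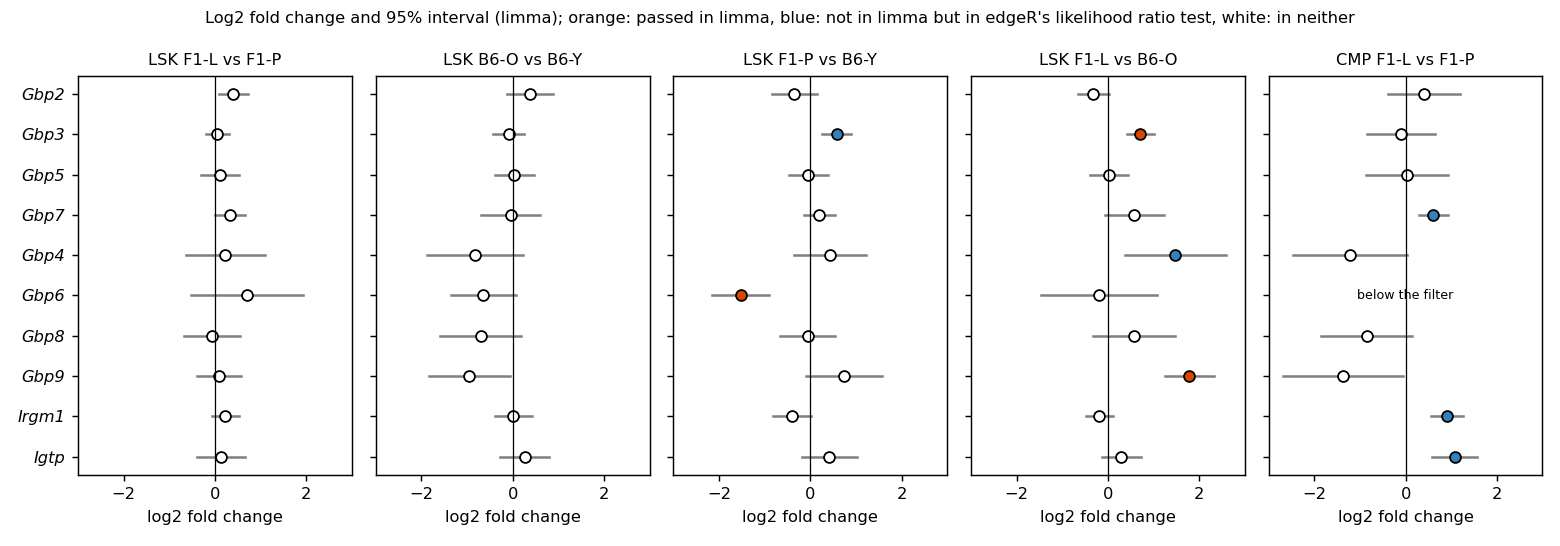
Log2 fold change and 95% interval (limma) of the 10 genes in each comparison, with the first-named group minus the second. Orange marks genes that passed in limma (Gbp6 in F1-P against B6-Y, Gbp3 and Gbp9 in F1-L against B6-O), blue those that passed in the likelihood ratio test of edgeR but not in limma, and white the rest.

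Among the 15 further family genes, Tgtp2 and Gvin1 had the largest falls in the strain comparisons. Tgtp2, an effector IRG, fell by 2.72 on the log2 scale in F1-P against B6-Y, from 18.4, 16 and 29.2 scaled CPM to 1.65, 2.28 and 3.01. It also fell in F1-L against B6-O, from 24.7, 24.9 and 24.8 to 2.72, 3.74 and 3.41 (adjusted p = 0.000248 in limma). Gvin1, a very large GTPase, had 0 reads in all 6 NZBW/F1 LSK samples and 106 to 135 in B6-Y and 73 to 109 in B6-O. Against a floor of 3 reads per library it was at least 27.3-fold lower in F1-P and at least 23.7-fold lower in F1-L. In Tgtp2 81.4% and in Gvin1 98.3% of the 75-base stretches occurred in other genes, and both values are uncertain for that reason. Irgc1 was 0.155, 0.101 and 0.172 in B6-Y and 1.85, 3.44 and 1.36 in F1-P. Gvin1 and Irgc1 passed the filter only through the strain in which they were high, which favoured a difference, so their calls are a description only. Of the 14 further genes tested in F1-P against B6-Y, limma called 6, Gvin1 and Irgc1 included, where it called 16.2% of all genes. The count of 6 is therefore not a fair measure against that share. They were Tgtp2, Gvin1, Iigp1, Gm4951 and Mx1 as lower and Irgc1 as higher. The call of Iigp1 was lost without F1-P replicate 2 (adjusted p = 0.0665 in limma) or B6-Y replicate 1 (adjusted p = 0.0539 in limma). Of 13 in F1-L against B6-O it called 4, against 11.6% of all genes, with Tgtp2, Gvin1 and Tgtp1 as lower and Irgc1 as higher. The same limit holds for this count, which again includes Gvin1 and Irgc1. The call of Tgtp1 was lost without any 1 of the F1-L samples or without B6-O replicate 1 or 2 (adjusted p = 0.0815 to 0.186 in limma).

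C57BL/6 LSK of the 2 ages were compared to see what age alone did in the control strain. The chromosome 5 genes had lower means in B6-O. Gbp2 (log2 fold change 0.38, 95% interval -0.13 to 0.89) and Igtp (0.26, 95% interval -0.27 to 0.80) had higher means, and the remaining members were nearly level. No gene passed in limma (0% of 14005), the quasi-likelihood test of edgeR called 0 genes, and its likelihood ratio test and DESeq2 called 0.814% and 1.48% of genes and no member. At an unadjusted p below 0.05 in limma, 6.62% of genes and 1 of the 10 members, Gbp9, were found. Gbp9 was 37.3, 50.4 and 17.2 scaled CPM in B6-Y and 12.2, 17.5 and 19.3 in B6-O (log2 fold change -0.95, 95% interval -1.84 to -0.06, adjusted p = 0.704 in limma). Its groups overlapped through B6-Y replicate 3. No member's groups were apart, as those of 11.3% of all genes were.

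The other chromosome 5 genes had the same arrangement of samples. Gbp4 was 53.1, 73.9 and 28.2 in B6-Y and 16.5, 24.2 and 47.8 in B6-O, and Gbp8 was 40, 47.5 and 22.8 and 13.1, 21.7 and 33.2. In both genes B6-Y replicate 3 was the lowest of its group and B6-O replicate 3 the highest of its group. The B cell marker sums were 61.1, 79.7 and 56.1 in B6-Y and 29.6, 25.2 and 68.2 in B6-O, so that replicate 3 was the lowest of B6-Y and the highest of B6-O in these sums too. The neutrophil marker sums had this arrangement as well, at 236, 2535 and 194 in B6-Y and 792, 371 and 4397 in B6-O. B6-O replicate 3 was also the highest of its group for plasma cells, T and NK cells, monocytes and macrophages, plasmacytoid dendritic cells and stroma. For endothelial cells it was the lowest. The part of B cells or of these other cells in the values of Gbp4, Gbp8 and Gbp9 in C57BL/6 LSK was not tested. In NZBW/F1 LSK the B cell marker sums were 79, 168 and 132 in F1-P and 92.1, 89.2 and 82.4 in F1-L.

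The difference between the stage effect in NZBW/F1 LSK and the age effect in C57BL/6 LSK was tested in 1 fit over the 12 samples. It was positive for 9 of the 10 members and called for none (0% of 15084 genes in limma, with 3.92% at an unadjusted p below 0.05 and no member among them). The quasi-likelihood test of edgeR called 0%, its likelihood ratio test 0.0663% and DESeq2 0.192% of genes, with no member among them. It was 1.34 on the log2 scale for Gbp6 (95% interval -0.09 to 2.77), 1.04 for Gbp4 (-0.36 to 2.45) and 1.03 for Gbp9 (-0.00065 to 2.07), each with an adjusted p of 0.977 in limma. For Igtp it was -0.13 (95% interval -0.86 to 0.61) and for Irgm1 0.21 (95% interval -0.27 to 0.69). For Gbp2 it was 0.02 (95% interval -0.56 to 0.60).

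The genes upstream of the family were examined as a list of 12 genes of IFN-γ signalling. In CMPs none of the 10 tested passed in limma. Ifngr1, which encodes the ligand-binding receptor chain, was 189, 204 and 171 scaled CPM in F1-P and 228, 236 and 236 in F1-L, without overlap (log2 fold change 0.32, adjusted p = 0.394 in limma). Irf1, which drives many GBP genes, was 53, 86.4 and 95.9 in F1-P and 49.8, 29.8 and 66.4 in F1-L, so that its mean was lower where Irgm1 and Igtp were higher. Socs1, a feedback inhibitor, was low in both (1.93 ± 0.887 and 1.45 ± 0.811).

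In LSK a few genes of this list passed in limma between the strains and none between the 2 NZBW/F1 stages. Between the stages the likelihood ratio test of edgeR and DESeq2 each called 1 gene of the list as higher. These tests called 4.58% and 5.12% of all genes in either direction. In F1-P against B6-Y, limma called 3 of 12 genes, where it called 16.2% of all genes. Of the 3, Ifng, the ligand, rose from 1.18 ± 0.684 to 3.42 ± 0.443 scaled CPM (adjusted p = 0.0211 in limma). Ifng was 0.682, 1.96 and 0.894 in B6-Y and passed the filter through its F1-P samples. This favoured higher values in F1-P, so its rise is a description only. Socs1 rose from 8.25 ± 2.9 to 17.2 ± 3.05 (adjusted p = 0.0397 in limma), while Irf8, a myeloid factor, fell from 349 ± 29.8 to 197 ± 18.7 (adjusted p = 0.00604 in limma). In F1-L against B6-O only Socs1 of the 12 passed, a share below the 11.6% of all genes, rising from 7.21 ± 0.541 to 16.3 ± 2.38 (log2 fold change 1.07, adjusted p = 0.0105 in limma). Irf1 passed in neither comparison. Transcripts of T and NK cells, which are known to make IFN-γ, were also higher in NZBW/F1 LSK, as given above, and their part in the value of Ifng was not tested.

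Of 30 IFN-γ target genes outside the GTPases, none of the 27 tested in CMPs passed in limma. At an unadjusted p below 0.05, 4 were higher and 4 lower, where 9.8% of all genes had such a p in either direction. Tap1, the peptide transporter, was 102, 108 and 143 scaled CPM in F1-P and 199, 164 and 205 in F1-L, and Nlrc5, the activator of MHC class I genes, was 35.5, 43.1 and 58.4 against 92.6, 64.9 and 94.1. Both thus separated the groups in the direction of Irgm1 and Igtp. Cxcl10, a chemokine, lay the other way, at 7.64, 42.2 and 20.4 in F1-P and 0.727, 1.19 and 2.14 in F1-L. In LSK, F1-P against B6-Y had 6 of 26 called as higher and none as lower (16.2% of all genes were called in either direction), with Ly6a (which encodes Sca-1, an antigen of the gate), Cd74, H2-Eb1 and Cxcl10 at the smallest p. F1-L against B6-O had only Ly6a called, of 28, a share below the 11.6% of all genes that limma called. F1-L against F1-P had none of 28 called in limma. At an unadjusted p below 0.05 in limma, 6 were higher and 2 lower there, against 12.8% of all genes in either direction. The likelihood ratio test of edgeR called 4 and DESeq2 5 as higher, and they called 4.58% and 5.12% of all genes in either direction.

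Type I interferon-stimulated genes, another group known to be regulated through ISREs, were examined as a further list. Of 30 genes, 16 fell and 1 rose in F1-P against B6-Y (limma, which called 16.2% of all genes), with a median log2 fold change of -0.78 against 0.07 for the 10 members and -0.04 for all genes. In F1-L against B6-O, 1 fell (Rtp4) and 2 rose (Zbp1 and Herc6), where 11.6% of all genes were called, with a median of -0.20. In CMPs none of 29 passed in limma, and the median log2 fold change was 0.42. At an unadjusted p below 0.05, 10 were higher and none lower, where 9.8% of all genes had such a p in either direction. Irf9 was 66.7, 65.7 and 69.6 scaled CPM in F1-P CMPs and 99, 85.4 and 95.3 in F1-L. In F1-L against F1-P LSK none of 30 passed in limma, with a median of 0.23. At an unadjusted p below 0.05 in limma, 8 were higher and none lower, where 12.8% of all genes had such a p in either direction. The likelihood ratio test of edgeR and DESeq2 each called 3 as higher, and they called 4.58% and 5.12% of all genes in either direction. Among 18 genes of inflammasome and autophagy pathways with which GBPs and IRGs are known to work, none passed in limma in CMPs. In F1-P against B6-Y LSK 2 rose, Atg5 and Sqstm1 of the autophagy pathway (log2 fold changes 0.60 and 0.87), and 1 fell, Pycard, the inflammasome adaptor (log2 fold change -1.36). Among 18 genes this is a share near the 16.2% of all genes called by limma. In F1-L against B6-O only Pycard of the 18 was called (log2 fold change -1.65), a share below the 11.6% of all genes.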

How the data were processed

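RNA was measured in 18 samples, 12 of LSK and 6 of CMPs, grouped by their labels. The authors sorted cells with a lineage panel, prepared TruSeq libraries, aligned 75-base single-end reads with STAR 2.6 to mm10 and counted them with HTSeq. The values the authors deposited are a signal, CPM scaled by an edgeR normalisation factor, not the plain CPM the design assumed. Whole reads were recovered from their steps (tolerance 0.01). For each comparison, genes reaching 1 in 3 or more of its samples entered limma 3.58.1 (lmFit, eBayes with trend) on log2(value + 1), which understates changes of low genes, with Benjamini-Hochberg adjustment over all genes tested. Alternatives were edgeR 4.0.16, DESeq2 1.42.0 and other pseudocounts, filters and scalings. Figures were drawn with matplotlib 3.10.9, and the tests were tested on simulated data. All 10 genes are given in every comparison, and of listed pathways the genes with the smallest p. The members and lists were chosen with earlier results of these data known. The B cell marker list and the IFN-γ signalling list each omit 1 gene that is not reported here. Exon lengths are from GENCODE and promoters from RefSeq. Strand use in counting is not given in the sources used here.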

Additional observations from a re-analysis of the deposited data

How the results depend on the processing

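The count of members past the thresholds was compared across the alternatives. In F1-P against B6-Y LSK it was 1 and became 2 (Gbp3 and Gbp6) with a pseudocount of 0.1, median of ratios scaling, scaling without immunoglobulin genes, no fold change minimum, the quasi-likelihood and likelihood ratio tests of edgeR and DESeq2, and was 1 to 2 with 1 sample left out. In F1-L against B6-O LSK it was 2, became 3 (with Gbp4) in the likelihood ratio test of edgeR, in DESeq2 and with all 12 LSK samples in 1 fit (adjusted p = 0.0493 in limma), and was 1 to 3 with 1 sample left out. In CMPs it was 0 and became 3 in the likelihood ratio test of edgeR and in DESeq2, and was 0 to 1 with 1 sample left out. For the difference between the CMP and LSK stage effects it was 0 and became 1 (Irgm1) in DESeq2. In the other comparisons it stayed at 0 in all of these. Fold changes near 0 reversed. On the log2 scale, Gbp5 in CMPs became -0.031 in both tests of edgeR and -0.039 in DESeq2. Irgm1 in B6-O against B6-Y became -0.0022 with median of ratios scaling, -0.013 in both tests of edgeR and -0.027 in DESeq2. In F1-L against B6-O, Gbp5 became -0.023 in both tests of edgeR and Gbp6 became 0.054 in DESeq2. With 1 sample left out, log2 fold changes that changed sign spanned, in F1-L against F1-P LSK, -0.029 to 0.10 for Gbp3, -0.13 to 0.61 for Gbp4, -0.059 to 0.21 for Gbp5, -0.28 to 0.22 for Gbp8, -0.084 to 0.24 for Gbp9 and -0.12 to 0.29 for Igtp. They spanned, in F1-P against B6-Y, -0.15 to 0.12 for Gbp5 and -0.36 to 0.15 for Gbp8, and in F1-L against B6-O, -0.12 to 0.11 for Gbp5 and -0.74 to 0.34 for Gbp6. In B6-O against B6-Y they spanned -0.15 to 0.0027 for Gbp3, -0.050 to 0.18 for Gbp5, -0.23 to 0.27 for Gbp7 and -0.12 to 0.16 for Irgm1, and in CMPs -0.41 to 0.11 for Gbp3 and -0.31 to 0.30 for Gbp5. The cause was not tested. With the replicate number as a block, no member's call changed, with counts of 0, 1, 2, 0 and 0, but Tgtp1 in F1-L against B6-O no longer passed (adjusted p = 0.0959 in limma). Tgtp1 also did not pass without a filter (0.063) or with a mean of at least 5 (0.0622), both in limma. The samples share only a number, since same-numbered samples had deviations correlated between -0.45 and 0.62. With the longest transcript in place of the union of exons, 6 of 20 levels per length moved by more than the SD. Low values limit Gbp6 in CMPs, where 2 to 36 reads were counted.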

Other observations

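The genes whose pattern was most like the mean of the 10 members over the 12 LSK samples were Lmo7, Hspb6, Rffl, Mill2 and Zfp512. Their Pearson r with the mean z-score of the members was 0.803, 0.785, 0.778, 0.777 and 0.768, the highest among 11321 genes with a mean of at least 5 scaled CPM. The samples share 2 strains and 1 normalisation, and no p is given for these values.

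Gbp2b, a close relative of Gbp2, had 0 to 4 reads in the C57BL/6 LSK samples and 15 to 31 reads in the NZBW/F1 LSK samples. Mx1, an antiviral GTPase of the dynamin family, was 24.8, 25.7 and 26.1 scaled CPM in B6-Y, 8.93, 8.02 and 12.9 in B6-O, 11.7, 9.34 and 11 in F1-P and 12.9, 8.15 and 10.2 in F1-L. Its B6-Y samples stood above the samples of the other LSK groups, and its values in those groups overlapped.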
